A study of Mus musculus with 6 samples.

Results

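The unfolded protein response genes described here are 37 genes listed by name: chaperones and folding enzymes of the endoplasmic reticulum (ER), genes of ER-associated degradation, genes of the ATF4 branch, and the stress sensors with their transducers. The rule goes by gene name and uses no measured value, although the list was drawn up with earlier results of these data known. A member was taken as every non-control probe that carries its gene name in the scanner files, which gave 64 probes for 35 of the 37 genes, among 41174 probes in all. Manf and Ppp1r15a have no probe under those names. The array lists them as Armet and Myd116, and they were found through their RefSeq accessions and are given apart. Of the 64 probes 63 passed the filter on dim signal, and only a second probe of Edem2 did not, so all 35 genes stood among the 16421 gene names tested.

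Pancreatic islets were compared between 2 obese mouse strains on 1-colour oligonucleotide arrays, which read transcript abundance as the brightness of a Cy3 dye. The NZO group holds male NZO/HiBomDife mice (New Zealand Obese), labelled diabetes-prone. The B6-ob/ob group holds male C57BL/6.V-Lepob/ob mice, which lack functional leptin and are labelled diabetes-resistant. Both strains ate a fatty diet free of carbohydrate up to 18 weeks of age and then food with carbohydrate for 48 h before islets were isolated. The groups differ in the whole genetic background as well as in leptin, and both had changed diet, so a difference here is one of strain after the diet change and is no measure of the response to it. The NZO group has replicates 10, 11 and 12 and the B6-ob/ob group replicates 4, 5 and 6, with 1 array each. Whether islets of several animals were pooled in a sample is not given, so the p-values rest on a spread between samples that may be technical.

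When unfolded proteins build up in the ER, 3 sensors in its membrane respond: IRE1 (gene Ern1) splices the Xbp1 transcript, ATF6 is cut to free a transcription factor, and PERK (gene Eif2ak3) phosphorylates eIF2alpha, which slows translation and favours that of ATF4. XBP1 and ATF6 act on genes of folding and of ER-associated degradation, in which misfolded proteins are pulled back to the cytosol and destroyed, and ATF4 acts on genes of amino acid supply and, through CHOP (gene Ddit3), of cell death. Beta cells fold large amounts of proinsulin and are known to depend on this response. The arrays read transcripts, and neither Xbp1 splicing, phosphorylation nor protein was measured here.

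Known response elements are shown first, as the sequences that factors of this response are known to bind. The members were listed as genes of this response, so an excess of its elements among them is background and no result of these data. RefSeq promoters of GRCm38.p6, from 250 bases before to 50 bases after the start, were at hand for 33 of the 37 genes, all but Atf6, Derl1, Hyou1 and Manf. The ER stress response element, known to bind NF-Y together with ATF6, was searched on both strands as CCAAT, any 9 bases, CCACG. It stood in 10 of the 33 members (30.3%), against 37 of the 27025 genes of the table (0.137%). By role it stood in 8 of 15 chaperone and folding genes, in 2 of 7 genes of ER-associated degradation, and in none of 7 ATF4 branch and 4 sensor genes. The sites are printed in the direction of the element, with both fixed ends in capitals.
Hspa5: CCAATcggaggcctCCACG
Hsp90b1, far site: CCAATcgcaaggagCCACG
Hsp90b1, near site: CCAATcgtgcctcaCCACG
Calr: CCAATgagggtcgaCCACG
Canx: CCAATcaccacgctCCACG
Pdia6: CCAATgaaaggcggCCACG
Dnajc3: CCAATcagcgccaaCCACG
Creld2: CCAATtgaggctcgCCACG
Ero1lb: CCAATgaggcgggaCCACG
Derl3: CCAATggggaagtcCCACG
Syvn1: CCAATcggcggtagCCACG
Its variant ERSE-II, searched as ATTGG, any base, CCACG, stood in Herpud1 and Dnajb11, which is 6.06% of the members against 0.0444% of all genes. The core of the unfolded protein response element, TGACGTG, stood in Hspa5 only (3.03% of the members against 2.22% of all genes).

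The element that ATF4 is known to bind with a C/EBP partner was searched by its core, TGATG, any base, AA. It stood in 5 of 33 members (15.2%), against 4.51% of all genes. Of these 5 members 4 belong to the 7 genes of the ATF4 branch and the other is Herpud1. These cores are shown as the ATF4 counterpart of the sites above, with the fixed bases in capitals.
Asns: TGATGaAA
Atf3: TGATGcAA
Chac1: TGATGcAA
Trib3: TGATGtAA
Herpud1: TGATGcAA
A match describes letters in this window and is neither a shown binding site nor a cause, and hits of the 4 elements did not overlap.

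Whole upstream stretches of 250 bases follow for 2 chaperones, for the degradation gene with the largest difference and for an ATF4 branch gene, each read along the gene and with the fixed bases of its elements in capitals. They lie at chr2:34771840-34772089 on the plus strand for Hspa5, chr10:86705445-86705694 on the minus strand for Hsp90b1, chr10:75893148-75893397 on the plus strand for Derl3 and chr2:119350992-119351241 on the plus strand for Chac1, all on GRCm38.p6.
Hspa5: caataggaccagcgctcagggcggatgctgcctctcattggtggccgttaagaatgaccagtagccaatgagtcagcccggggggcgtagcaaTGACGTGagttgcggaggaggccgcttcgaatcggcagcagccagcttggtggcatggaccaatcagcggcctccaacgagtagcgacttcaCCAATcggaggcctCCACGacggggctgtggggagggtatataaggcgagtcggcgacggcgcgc
Hsp90b1: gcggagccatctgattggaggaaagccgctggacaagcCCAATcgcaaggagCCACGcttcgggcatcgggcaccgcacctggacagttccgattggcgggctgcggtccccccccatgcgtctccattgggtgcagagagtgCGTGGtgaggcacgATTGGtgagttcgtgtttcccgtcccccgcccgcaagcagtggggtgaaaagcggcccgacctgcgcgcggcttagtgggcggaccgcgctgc
Derl3: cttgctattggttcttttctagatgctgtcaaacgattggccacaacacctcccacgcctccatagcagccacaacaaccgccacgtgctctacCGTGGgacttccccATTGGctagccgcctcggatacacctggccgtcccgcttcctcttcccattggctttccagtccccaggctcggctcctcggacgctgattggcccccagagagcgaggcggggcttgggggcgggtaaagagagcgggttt
Chac1: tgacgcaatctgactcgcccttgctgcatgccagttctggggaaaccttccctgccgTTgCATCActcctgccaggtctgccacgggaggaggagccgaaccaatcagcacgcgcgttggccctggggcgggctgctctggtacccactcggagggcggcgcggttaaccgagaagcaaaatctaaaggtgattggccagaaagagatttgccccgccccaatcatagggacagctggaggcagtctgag
The ER stress response element of Hspa5 lies at positions -65 to -47 from the start and its unfolded protein response element core at -157 to -151, and the elements of Hsp90b1 lie at -212 to -194 and -107 to -89. In Derl3, in Chac1 and at the near site of Hsp90b1 the element runs against the gene, so it appears there as its reverse complement.

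Levels below are log2 of the processed signal minus the 75th percentile of that array's probes, so a level of 0 stands at that percentile, and levels of different genes are not compared. Each difference is the NZO mean minus the B6-ob/ob mean, with strains as the scanner files are labelled, which opposes the direction of the deposited value table. Over 18313 probes, each of its 6 columns followed an array of the other strain (r between 0.966 and 0.984) and ran against the array of its own label (r between -0.778 and -0.523). Which of these labellings is right is not given, and every strain direction below would reverse under the other. An array had between 23626 and 24716 probes well above background, none was saturated, and precision is limited by having 3 arrays a strain.

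Few unfolded protein response genes passed the test between the strains, and their number changed with the processing. In the limma test over all 16421 gene names at an adjusted p under 0.05, 1 of 35 members was lower in NZO (Atf6) and none was higher, or 8 lower and 2 higher at an unadjusted p under 0.05. Of all gene names tested 9.01% were lower, 13.2% higher and 22.2% either, or 16.2% lower and 19% higher at an unadjusted p under 0.05. The strains did not overlap at 7 members that were lower in NZO, beside 20.4% of all gene names, and at 2 that were higher, beside 20.7%. The share of 29 of 35 members with a difference below 0 (82.9%) stands beside 53% of all gene names, and the median difference was -0.26 beside -0.03. Of the median's alternatives, leaving out B6-ob/ob replicate 4 gave -0.10 and leaving out B6-ob/ob replicate 6 gave -0.44, at which 7 members were lower. The number of members lower in NZO was also 6 with quantile normalisation and 11 with array weights. B6-ob/ob replicate 5 had a weight of 5.53 there, against 0.43 and 0.44 for B6-ob/ob replicates 4 and 6. The count of 11 thus rests largely on 1 B6-ob/ob array. The share of all gene names at these other settings is not given, so these counts have no background beside them.

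**Figure D1:**
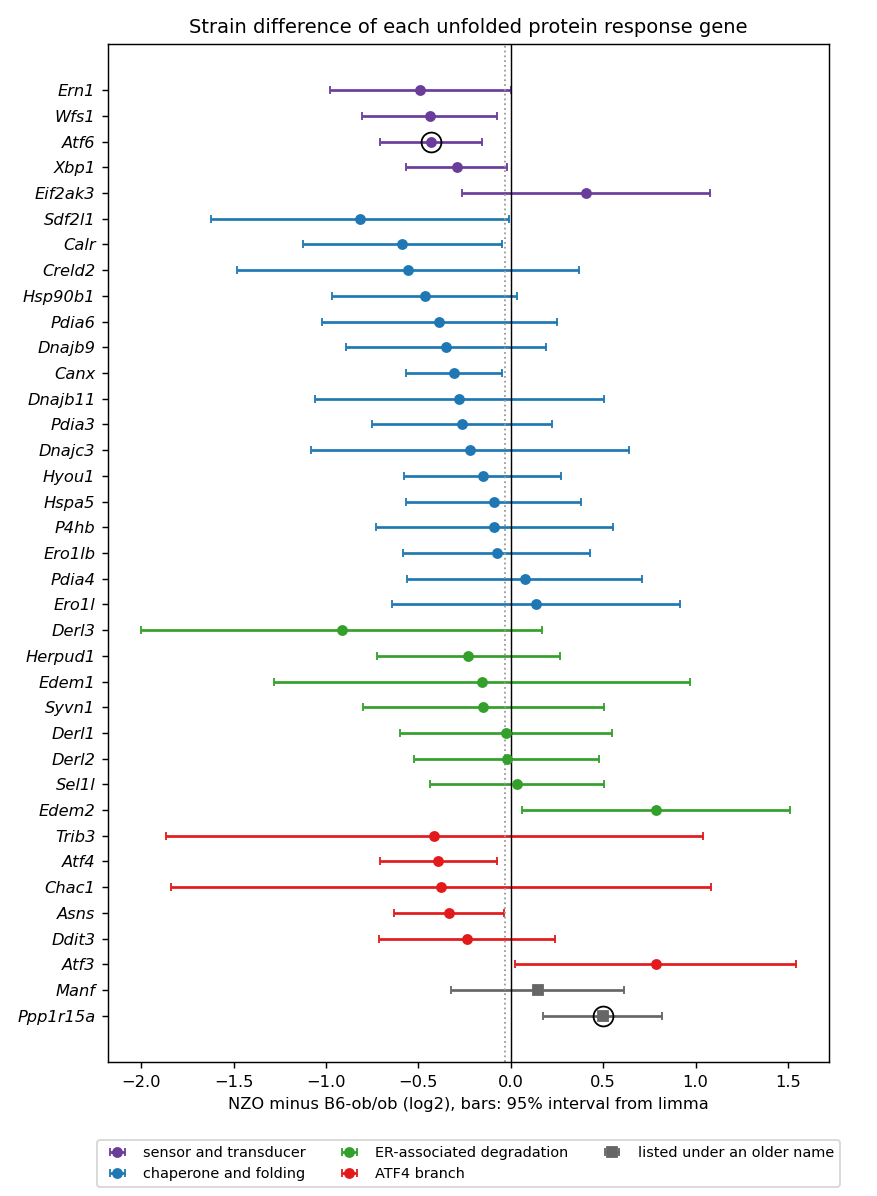
Difference of each unfolded protein response gene, NZO minus B6-ob/ob on the log2 scale (horizontal axis), with its 95% interval from limma, by role from top to bottom. Rings mark an adjusted p under 0.05 and the dotted line the median of all gene names tested (-0.03). Of the 35 members named on the array 29 lie left of 0, from -0.92 for Derl3 to 0.79 for Edem2, and the ringed genes are Atf6 and Ppp1r15a.

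The sensors and transducers held the single called member. Atf6, which encodes the cleaved sensor, had levels of 2.62, 2.63 and 2.49 in NZO replicates 10, 11 and 12, against 3.10, 3.05 and 2.89 in B6-ob/ob replicates 4, 5 and 6. All NZO arrays lay below all B6-ob/ob arrays. The difference was -0.43 (standard error 0.11, limma adjusted p = 0.0415), on a probe at chr1:172637679-172637738 of mm9, the build of the array's probe positions. Whether a probe covers coding or untranslated sequence is not given in the files. The second Atf6 probe, at chr1:172638994-172639053, differed by 0.15 (limma adjusted p = 0.520), with levels of 1.04, 1.03 and 1.01 in NZO and 1.11, 0.86 and 0.67 in B6-ob/ob. The 2 probes of Atf6 therefore disagree, and with the mean of both the difference was -0.14 (limma adjusted p = 0.459). The call also ended with slide as a fixed block (adjusted p = 0.157), with no filter on dim probes (0.0950) and without any 1 array other than B6-ob/ob replicate 6 (0.0877 to 0.156).

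Wfs1, which encodes wolframin, an ER membrane protein whose loss causes diabetes in human Wolfram syndrome, had 4.41, 4.40 and 4.33 in NZO against 4.96, 4.96 and 4.53 in B6-ob/ob. The strains did not overlap, and B6-ob/ob replicate 6 was the nearest to NZO (difference -0.44 with standard error 0.15 and limma adjusted p = 0.0893). Xbp1, the transcript that IRE1 splices, had 3.49, 3.34 and 3.57 in NZO against 3.80, 3.70 and 3.77 in B6-ob/ob. Its strains did not overlap either, with a difference of -0.29 (standard error 0.11, adjusted p = 0.122). Ern1, which encodes IRE1, had -0.50, -0.09 and -0.72 in NZO against 0.25, 0.08 and -0.18 in B6-ob/ob. NZO replicate 11 lay above B6-ob/ob replicate 6, and the difference of -0.49 did not pass (adjusted p = 0.142). Eif2ak3, which encodes PERK, ran the other way at 1.81, 2.30 and 1.61 in NZO against 1.93, 1.50 and 1.07 in B6-ob/ob. Its difference was 0.41 on overlapping arrays (adjusted p = 0.354) and -0.05 on its second probe. Over the 5 genes the median difference was -0.43, with 4 below 0.

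None of the 16 chaperone and folding genes named on the array passed the test, and 14 of them had a difference below 0, with a median of -0.27. At an unadjusted p under 0.05 there were 3 lower and 0 higher, beside 16.2% lower and 19% higher of all gene names. The number lower was 3 with quantile normalisation, with normexp and quantile normalisation and without B6-ob/ob replicate 6, and 4 with array weights. Calr and Sdf2l1 each passed in these 4 of 15 tested alternatives. The share of all gene names at these settings is not given, so these counts have no background beside them. Hspa5, which encodes BiP, the main ER chaperone and the usual readout of the response, had 8.24, 8.17 and 8.03 in NZO against 8.53, 8.34 and 7.85 in B6-ob/ob. Its NZO arrays lay inside the B6-ob/ob range, and the difference was -0.09 with a 95% interval of -0.57 to 0.38 (limma adjusted p = 0.783). That difference was -0.36 with quantile normalisation (adjusted p = 0.0759), -0.29 with normexp and quantile normalisation or without B6-ob/ob replicate 6, and 0.05 without B6-ob/ob replicate 4. Hsp90b1, which encodes the chaperone GRP94, had 7.20, 7.33 and 7.02 in NZO against 8.03, 7.61 and 7.31 in B6-ob/ob, a difference of -0.47 on arrays that overlapped at 1 point (adjusted p = 0.167).

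Calr, which encodes the lectin chaperone calreticulin, had 4.92, 4.95 and 4.85 in NZO against 5.86, 5.60 and 5.02 in B6-ob/ob, with no overlap. The difference was -0.59 with a limma adjusted p of 0.115 (standard error 0.22). The membrane-bound relative calnexin (Canx) had 5.24, 5.32 and 5.23 in NZO against 5.58, 5.65 and 5.47 in B6-ob/ob, again with no overlap, at -0.31 (adjusted p = 0.0943). Sdf2l1, a component of ER chaperone complexes known to be induced by ER stress, had 5.65, 5.76 and 5.55 in NZO against 7.06, 6.63 and 5.73 in B6-ob/ob. B6-ob/ob replicates 4 and 5 were higher than every NZO array and replicate 6 stood among them, so that the difference of -0.82 carried a standard error of 0.33 (adjusted p = 0.138). Creld2, which encodes an ER protein induced by ER stress, was spread in the same manner at -0.56, with 7.73, 7.90 and 7.35 in NZO against 8.88, 8.36 and 7.41 in B6-ob/ob (adjusted p = 0.362).

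No gene of the protein disulfide isomerases and their partners passed the test. Pdia6 stood at -0.39 with a 95% interval of -1.02 to 0.25, and at -0.66 without overlap on its probe of the widest difference (limma adjusted p = 0.0665). Pdia3, which works with calnexin and calreticulin, stood at -0.26, P4hb, the classical isomerase, at -0.09 and Pdia4 at 0.07. The oxidase genes Ero1l (now Ero1a) and Ero1lb (now Ero1b), which reoxidise the isomerases, stood at 0.14 and -0.08. Ero1lb is known to be abundant in islets, and its other probes differed by -0.86 and 0.37. On its brightest probe it was the one of these 16 genes in which B6-ob/ob replicate 6 was not the lowest array of its strain, with 6.98, 6.67 and 6.98 in NZO against 6.65, 6.86 and 7.35 in B6-ob/ob. Of the co-chaperones, Dnajb9 stood at -0.35, Dnajb11 at -0.28, Dnajc3, known as p58IPK, at -0.22, and Hyou1, a large HSP70-type chaperone, at -0.15, with limma adjusted p between 0.323 and 0.711. Manf, a secreted ER stress protein listed as Armet, had 6.31, 6.37 and 6.25 in NZO against 6.51, 6.17 and 5.80 in B6-ob/ob, a difference of 0.15 (adjusted p = 0.648).

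**Figure D2:**
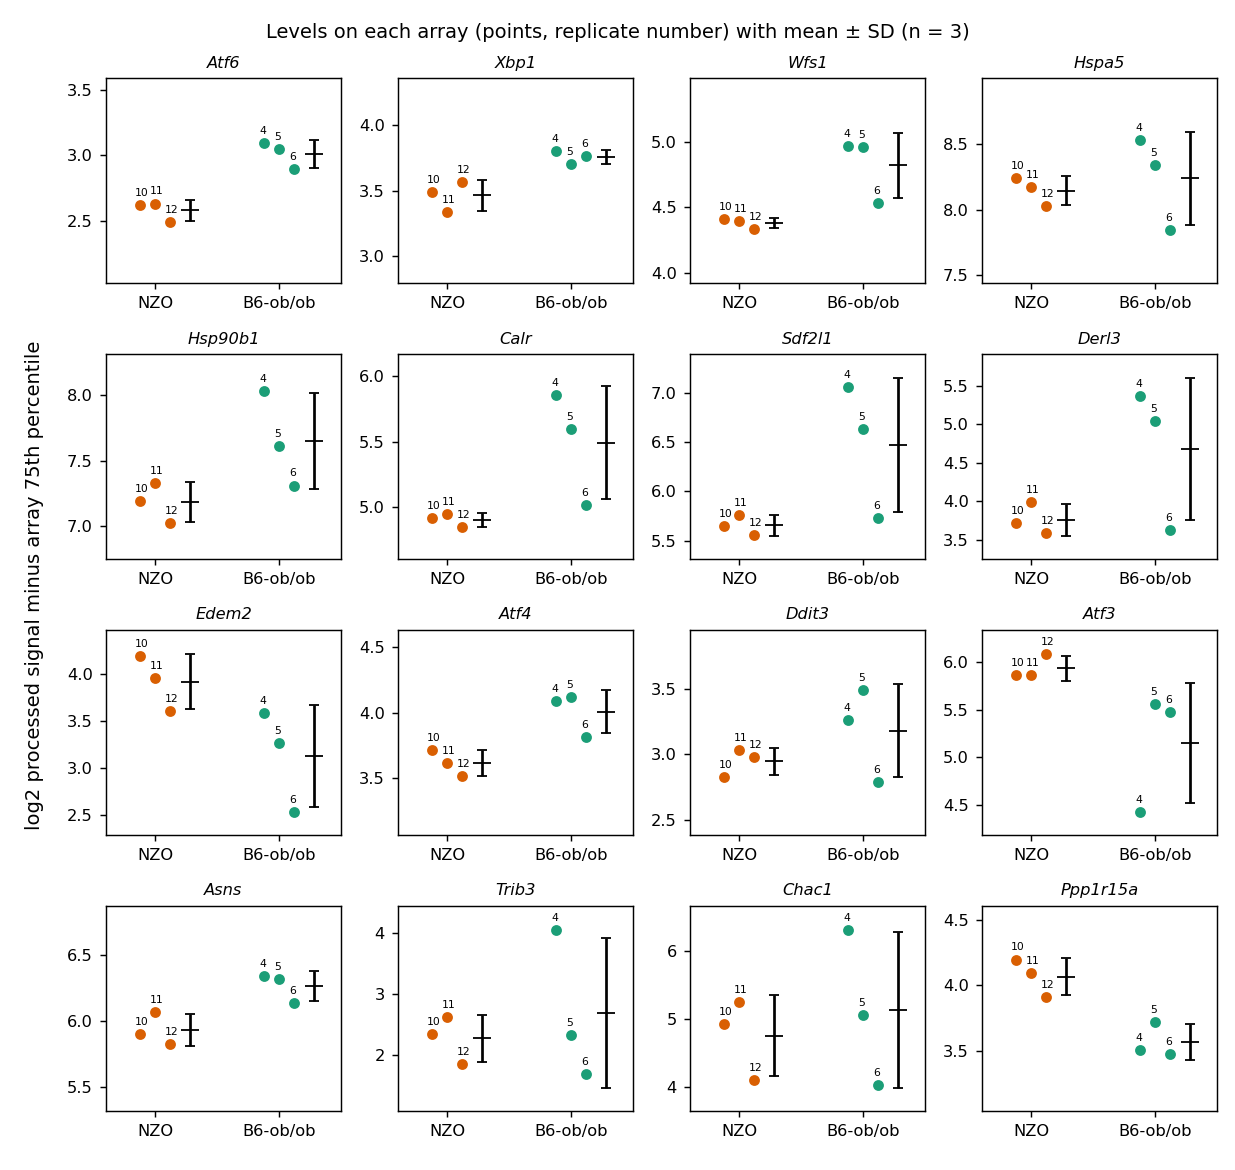
Level of 16 members on each array (vertical axis, log2 processed signal minus the array's 75th percentile), NZO on the left and B6-ob/ob on the right, with replicate numbers beside the points and the mean ± SD of 3 arrays in black. NZO arrays lie close together in most panels, while B6-ob/ob replicate 4 is high and replicate 6 low in Hspa5, Hsp90b1, Calr, Sdf2l1, Derl3, Trib3 and Chac1.

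Among 8 genes of ER-associated degradation none passed the limma test in either direction, and the median difference was -0.09. At an unadjusted p under 0.05, 0 were lower and 1 was higher, beside 16.2% and 19% of all gene names. Derl3, a derlin of the retrotranslocation channel known to be strongly induced by ER stress, had 3.71, 3.99 and 3.58 in NZO against 5.37, 5.04 and 3.63 in B6-ob/ob. B6-ob/ob replicates 4 and 5 exceeded every NZO array and replicate 6 lay within the NZO range, giving -0.92 with a standard error of 0.45 (adjusted p = 0.208). Edem2, a mannosidase-related gene that marks misfolded glycoproteins, was the exception, with 4.18, 3.96 and 3.60 in NZO against 3.59, 3.26 and 2.54 in B6-ob/ob. All NZO arrays lay above all B6-ob/ob arrays, by 0.79 with a standard error of 0.30 (adjusted p = 0.117). Its relative Edem1 stood at -0.16.

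The other members of this machinery were closer. Herpud1, a membrane component induced by ER stress, had 6.47, 6.54 and 6.50 in NZO against 7.08, 6.80 and 6.32 in B6-ob/ob (-0.23, limma adjusted p = 0.482). The ubiquitin ligase gene Syvn1, which encodes HRD1, stood at -0.15, its cofactor gene Sel1l at 0.03, Derl1 at -0.03 and Derl2 at -0.02. All 8 genes had their highest B6-ob/ob value on replicate 4 and their lowest on replicate 6.

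The 6 ATF4 branch genes named on the array had a median difference of -0.36, with 5 below 0, and none passed the limma test. At an unadjusted p under 0.05, 2 were lower and 1 was higher, beside 16.2% and 19% of all gene names. Atf4, the transcription factor of this branch, had 3.71, 3.62 and 3.52 in NZO against 4.09, 4.12 and 3.82 in B6-ob/ob. The strains did not overlap, and the difference was -0.39 with a standard error of 0.13 (adjusted p = 0.0834). Asns, the asparagine synthetase gene and a classical ATF4 target, had 5.90, 6.07 and 5.82 in NZO against 6.34, 6.32 and 6.14 in B6-ob/ob, also without overlap (-0.33, adjusted p = 0.109). Ddit3, which encodes the death-linked factor CHOP, had 2.83, 3.03 and 2.98 in NZO against 3.26, 3.49 and 2.79 in B6-ob/ob. B6-ob/ob replicate 6 lay below every NZO array, and the difference was -0.24 with a 95% interval of -0.71 to 0.24 (adjusted p = 0.454).

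Trib3, a pseudokinase gene, had 2.35, 2.62 and 1.86 in NZO against 4.05, 2.33 and 1.70 in B6-ob/ob. Chac1, which encodes an enzyme that degrades glutathione, had 4.93, 5.25 and 4.10 in NZO against 6.31, 5.06 and 4.03 in B6-ob/ob. In both genes only B6-ob/ob replicate 4 exceeded every NZO array. Their differences of -0.41 and -0.38 had standard errors of 0.60 (limma adjusted p = 0.678 and 0.710), and without B6-ob/ob replicate 4 they were 0.27 and 0.21. Atf3, a stress-induced factor of the same family as Atf4, ran the other way with 5.86, 5.86 and 6.09 in NZO against 4.43, 5.56 and 5.47 in B6-ob/ob. No arrays overlapped, and B6-ob/ob replicate 4, the highest array for most members, was the lowest one here (0.78 with a standard error of 0.31, adjusted p = 0.132).

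Ppp1r15a, which encodes GADD34, the phosphatase subunit that reverses the phosphorylation of eIF2alpha, rose in NZO. Listed as Myd116, it had 4.20, 4.09 and 3.91 in NZO against 3.51, 3.73 and 3.48 in B6-ob/ob, on a probe at chr7:52779582-52779641 of mm9. All NZO arrays lay above all B6-ob/ob arrays, by 0.50 with a standard error of 0.13, a ratio of 1.41 (limma adjusted p = 0.0428). It passed in 8 of 15 tested alternatives, with differences of 0.41 to 0.69 over all alternatives and adjusted p up to 0.140. It did not pass with slide as a fixed block (0.0925), with no filter on dim probes (0.0911) or without any 1 array other than NZO replicate 12 (0.0771 to 0.140). Counted with the members named on the array, 1 gene was higher and 1 lower.

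The spread among the arrays of 1 strain was wider in B6-ob/ob than in NZO at 31 of 35 members (88.6%), beside 60.5% of all gene names. The median SD was 0.17 in NZO and 0.42 in B6-ob/ob, beside 0.17 and 0.22 over all gene names. Within B6-ob/ob, replicate 4 was highest, replicate 5 intermediate and replicate 6 lowest at 28 members (80%, beside 33.6% of all gene names). Within NZO, replicate 12 was lowest at 29 (82.9%, beside 42.9%). With each gene set to its mean over the 6 arrays, the chaperone and folding genes averaged -0.06, -0.03 and -0.32 in NZO replicates 10, 11 and 12, against 0.49, 0.23 and -0.30 in B6-ob/ob replicates 4, 5 and 6.

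**Figure D3:**
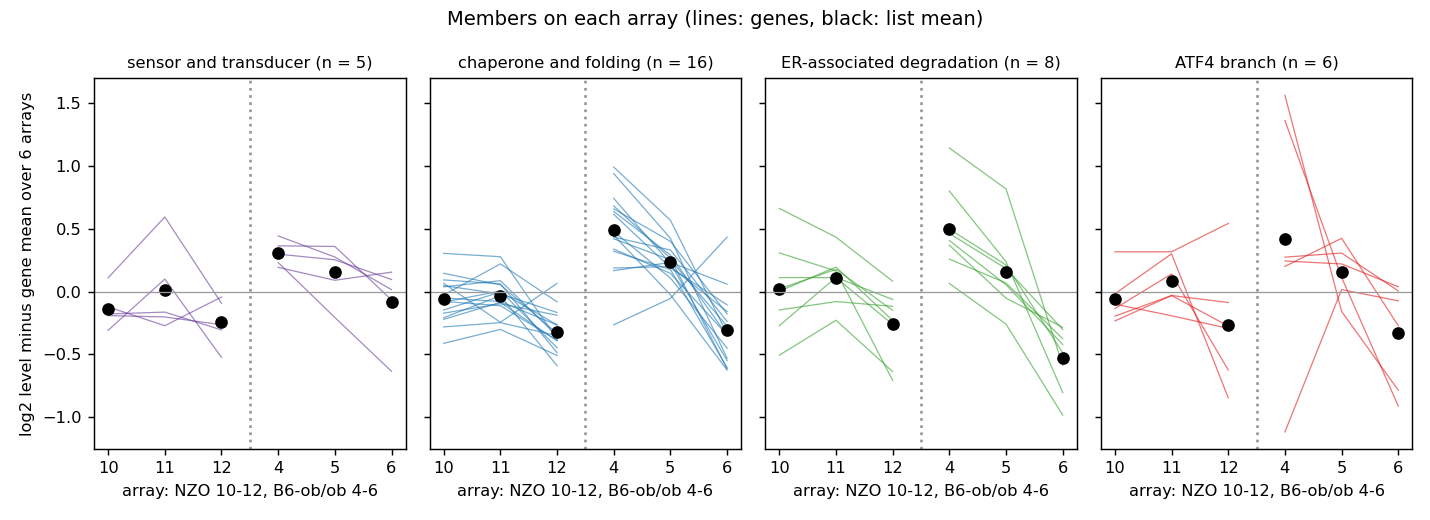
Each line joins the values of 1 gene within a strain, as the log2 level minus that gene's mean over 6 arrays (vertical axis), on NZO arrays 10 to 12 and then B6-ob/ob arrays 4 to 6 (horizontal axis), in 1 panel per role. The black points, list means, run from 0.50 on B6-ob/ob replicate 4 to -0.53 on replicate 6 among the degradation genes and stay within -0.26 and 0.11 on their NZO arrays.

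The 4 role means had the same order of arrays, B6-ob/ob replicate 4 above 5 above 6 and NZO replicate 11 above 10 above 12. On the same scale the degradation genes averaged 0.02, 0.11 and -0.26 in NZO against 0.50, 0.16 and -0.53 in B6-ob/ob. The ATF4 branch averaged -0.06, 0.08 and -0.26 in NZO against 0.42, 0.15 and -0.33 in B6-ob/ob, and the sensors -0.14, 0.01 and -0.25 against 0.31, 0.15 and -0.09. The ATF4 branch minus the chaperones was 0.00, 0.12 and 0.06 in NZO against -0.07, -0.08 and -0.03 in B6-ob/ob. The degradation genes minus the chaperones were 0.08, 0.14 and 0.06 in NZO against 0.01, -0.08 and -0.23 in B6-ob/ob. The sensors minus the chaperones were -0.08, 0.04 and 0.07 in NZO against -0.18, -0.08 and 0.22 in B6-ob/ob, as wide as the span of the sensors themselves over the B6-ob/ob arrays. These contrasts between roles carry no test because the members were chosen with results of these data known.

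The strain difference of the members was not alike within each slide, which the array barcodes give. Slide 2 holds NZO replicate 10 and B6-ob/ob replicate 4, slide 3 holds NZO replicate 11 and B6-ob/ob replicates 5 and 6, and slide 1 holds NZO replicate 12 alone. All were scanned on 1 day. With so few arrays on a slide, slide and replicate cannot be told apart. The median difference was -0.47 within slide 2, with 32 of 35 members below 0, and 0.02 within slide 3, with 17 below 0. For all gene names it was -0.05 and 0.02. By role the medians within slides 2 and 3 were -0.49 and -0.01 for chaperones, -0.43 and 0.31 for degradation genes, -0.44 and 0.12 for the ATF4 branch and -0.48 and -0.34 for the sensors. Atf6 differed by -0.48 and -0.34, and Ppp1r15a by 0.69 and 0.49.

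Several members have more than 1 probe, and the brightest stands for the gene above. Of 17 members with at least 2 kept probes, 10 had probes whose differences had opposite signs. With every kept probe tested singly, 3 of 63 member probes were lower, beside 10.3% of all 24632 kept probes, and none was higher, beside 11.5%. The 3 were the first probe of Atf6 and the second, dimmer probes of Hsp90b1 and Calr, and 48 of the 63 had a difference below 0. The second Hsp90b1 probe had 6.08, 6.19 and 6.03 in NZO against 7.46, 7.07 and 6.57 in B6-ob/ob (-0.94 with standard error 0.23 and limma adjusted p = 0.0338 over all probes). The second Calr probe had 1.27, 1.43 and 1.21 in NZO against 2.50, 2.27 and 1.67 in B6-ob/ob (-0.85 with a standard error of 0.23, adjusted p = 0.0428). Neither probe's strains overlapped. Both sequences are shown because these probes passed where the brighter ones of the same genes did not, at chr10:86161329-86161388 and chr8:87368529-87368588 of mm9, on the minus strand.
Hsp90b1, second probe: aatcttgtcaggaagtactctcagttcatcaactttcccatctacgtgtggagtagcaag
Calr, second probe: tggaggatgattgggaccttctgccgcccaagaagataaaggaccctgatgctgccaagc

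**Figure D4:**
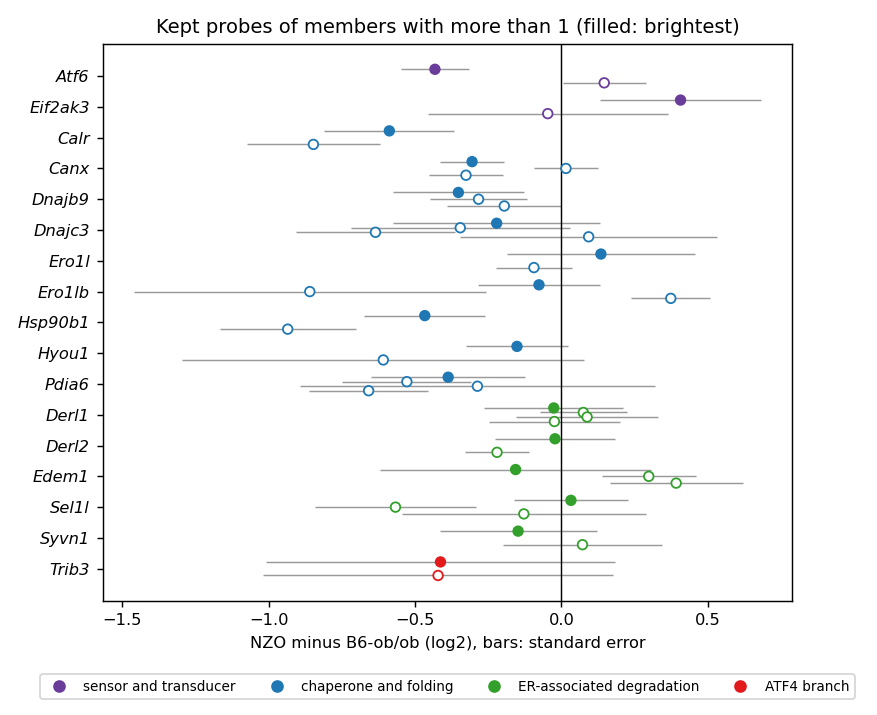
Difference of every kept probe of the members with more than 1, NZO minus B6-ob/ob on the log2 scale (horizontal axis), with its standard error as a bar; filled points are the brightest probes and colours are the roles. The second probes of Hsp90b1 and Calr lie at -0.94 and -0.85, left of the first ones at -0.47 and -0.59, and the 2 probes of Atf6 lie on opposite sides of 0.

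The members with the ER stress response element can be set beside the values. The 10 such members, all measured, had differences from -0.92 to -0.08 and a median of -0.35, and none passed the limma test. The 22 members tested under their own names with a promoter in the table and no such element had a median of -0.25, with 16 below 0, and Ppp1r15a, at 0.50, has no such element either. Of 8 other tested genes with the element, 2 were higher (Acacb at 1.51 and Spats2l, listed as 2810022L02Rik, at 1.46) and their median was 0.16. The 5 members with the ATF4 core, all measured, had a median of -0.33, from -0.41 for Trib3 to 0.78 for Atf3.

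More genes of the same pathways, outside the 37, were read for comparison. Calls in these and the later lists stand beside 13.2% higher and 9.01% lower of all gene names. Of 42 other ER folding and glycosylation genes 2 were higher and 1 was lower in the limma test, with a median of -0.18 and 32 below 0. Pdia2 and Erp27, isomerase family genes known from the exocrine pancreas, rose by 2.75 and 2.47 (adjusted p = 0.00348 and 0.0115). Magt1, a subunit of the oligosaccharyltransferase listed as 2810482I07Rik, fell, with a difference of -0.78 (adjusted p = 0.00453). Of 27 other genes of ER-associated degradation none passed in either direction, and their median was -0.01. At an unadjusted p under 0.05, 1 of them was higher and 0 were lower, beside 19% and 16.2% of all gene names. Replicate 4 was the highest and replicate 6 the lowest B6-ob/ob array at 37 of the 42 and 23 of the 27 genes, but at 0 of 16 cytosolic and mitochondrial heat shock genes.

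Among 40 other ATF4 and amino acid response genes 5 were higher and 7 lower in NZO, and the median was -0.21. The number higher is near the share of all gene names that were higher (13.2%). Stc2, a secreted glycoprotein gene, rose (adjusted p = 0.00055). Its measured difference of 5.92 rests on B6-ob/ob signals near background, since it was well above background on all NZO arrays but on only 1 of the 3 B6-ob/ob arrays. The hormone gene Fgf21 rose by 2.85, the stress gene Nupr1 by 2.01 and Gdf15, a stress-induced cytokine gene, by 1.76 (adjusted p = 0.00348, 0.00263 and 0.0208). Nupr1 had 7.43, 7.73 and 7.59 in NZO against 5.24, 6.08 and 5.40 in B6-ob/ob, and the strains overlapped at none of these 4 genes. Acinar markers, read further below, had a median difference of 2.41 (23 of 26 higher). The part of acinar cells in these 4 differences was not tested. The 7 lower genes are named after their values were seen. They include 5 of the 12 aminoacyl tRNA synthetase genes in the list, Mars at -0.66, Aars at -0.61, Cars at -0.49, Yars at -0.47 and Nars at -0.38, while the other 7 did not pass, at -0.41 to 0.03. Sesn2, a nutrient sensor gene, at -0.62 and the lipoprotein receptor gene Vldlr at -0.58 were the others. Cebpb, a partner of ATF4, rose by 0.69.

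In the list of other sensors, transducers and translation control, 5 of 21 genes were higher and 2 lower, with a median of 0.11. Scara3, a scavenger receptor class gene counted in this list, rose by 3.11 and Creb3l3, a liver-type factor related to ATF6, by 1.83. The double-stranded RNA kinase gene Eif2ak2 rose by 0.96, the kinase gene Map3k5, known as ASK1, by 0.68 and Creb3l4 by 0.56. The 2 lower genes were Eif2ak1 at -0.53 and Creb3l1 at -0.51. Of 14 genes tied to cell death under ER stress 3 were higher and 1 was lower, with a median of 0.20. Casp12, the rodent ER-linked caspase gene, rose by 2.15, Bcl2l11 (BIM) by 0.92 and Pmaip1 (NOXA) by 0.87, and the calcium pump gene Atp2a3 fell, with a difference of -0.49. Of 16 heat shock genes 2 were higher, Bag3 at 1.29 and Hspb1 at 0.89, with a median of 0.15. That count too is near the 13.2% of all gene names that were higher.

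Markers of other cells also differed, with acinar, stromal, ductal, endothelial and immune genes in the direction opposite to most members. Cell cycle genes ran in the same direction as most members, though only 2 of 13 passed the limma test. The islet endocrine markers, of which 14 of 15 were measured, averaged 6.83, 6.88 and 6.83 in NZO and 6.76, 6.83 and 6.996 in B6-ob/ob, with 0 higher and 1 lower. Of 26 measured acinar markers (30 listed) 23 were higher in NZO, with means of 5.72, 5.90 and 6.33 in NZO and 4.52, 3.76 and 2.98 in B6-ob/ob, and none was below background on every array of a strain. Acinar cells are known to be rich in ER, and the B6-ob/ob order of the members, replicate 4 above 5 above 6, was also that of 24 of the 26 acinar markers. In NZO the orders differed, since replicate 12 had the highest acinar mean and the lowest mean of each role but not of each gene. The 13 cell cycle markers averaged -0.99, -1.24 and -1.19 in NZO and 1.61, 1.03 and -2.00 in B6-ob/ob, with the same B6-ob/ob order at all 13. Their mean on B6-ob/ob replicate 6 thus lay below that of every NZO array, and 2 markers were lower and 0 higher. Of stromal, ductal, endothelial, macrophage and lymphocyte markers, 15 of 16, 6 of 12, 4 of 13, 8 of 13 and 5 of 6 were higher in NZO. In bulk islets, fewer cells of a type and less RNA per cell cannot be told apart. The part of these cells in the values of the members and of the companion lists was not tested.

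**Figure D5:**
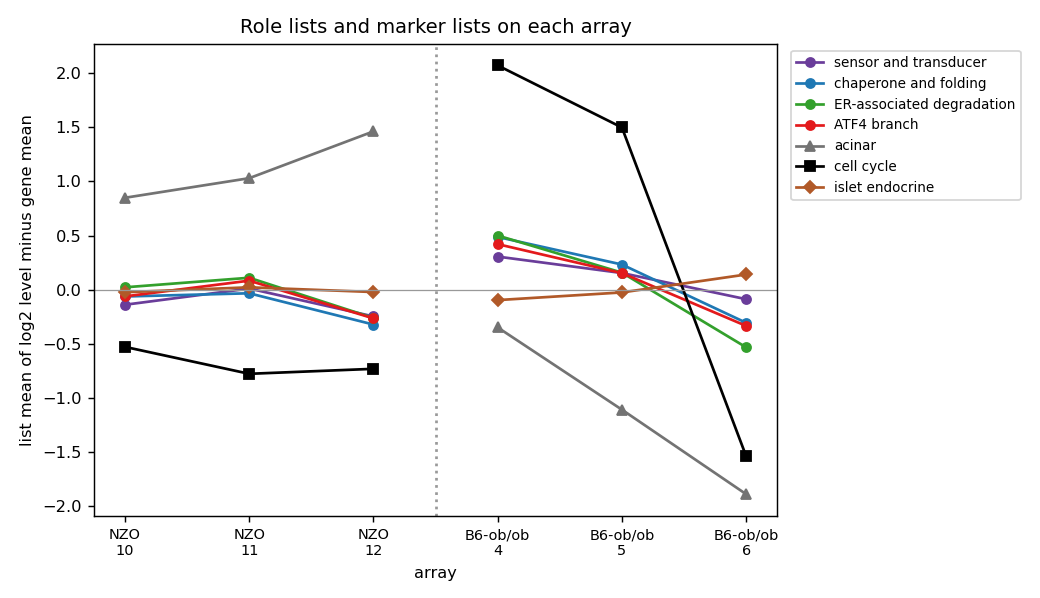
Mean of the 4 role lists and of the acinar, cell cycle and islet endocrine markers on each array (vertical axis, log2 level minus each gene's mean over 6 arrays), NZO arrays on the left and B6-ob/ob arrays on the right; lines only join the values of one list within a strain, whose arrays have no order. The role lists span 0.50 to -0.53 in B6-ob/ob, in the order of the acinar and cell cycle markers there, and the islet endocrine markers stay near 0.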

How the data were processed

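Islet RNA of 3 NZO and 3 B6-ob/ob samples was measured on Agilent mouse arrays of design 014868, with 1 array per sample and 1 colour, per the labels and the file headers. The scanner files that the authors deposited give linear spot intensities. Their headers name Agilent Feature Extraction 10.5.1.1, and the submitters' processing notes name version 9.1. Per the file headers, the software subtracted background from the processed intensity within each array, and arrays were not normalised to each other. The authors' value table, with deposited intensities at 33150 probes, was used without direction as an alternative, because its columns follow arrays of the other strain.

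Control spots and 61 to 76 outlier spots per array were left out. The log2 intensity was averaged per probe, and the array's 75th percentile over 41174 probes was subtracted from it. The 24632 probes called well above background on 3 or more of 6 arrays were kept, and the brightest kept probe stood for each gene name. The strain term was tested on both sides with limma 3.58.1 (lmFit, eBayes) under R 4.3.3. The adjusted p is Benjamini-Hochberg's over 16421 gene names, with a threshold of 0.05. The functions were tested on simulated data. Probe positions are on mm9 as the files give them, and promoters are RefSeq's, on GRCm38.p6.

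The members and lists were chosen with earlier results of these data known. The rule for named genes takes all 37 members, with values per array for those called and for Hspa5, Xbp1, Ddit3 and Atf4, and up to 4 called genes of each companion list by size. Per-array values of further members, and some further called genes, were added after their values were seen. The alternatives covered background and normalisation, the filter, the probe summary, slide, the prior variance, array weights, single probes, the value table and each array left out, and the genes under older names were added after seeing the data.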

Additional observations from a re-analysis of the deposited data

How the results depend on the processing

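In 18 alternatives each, the median difference of all members, of the chaperones and of the sensors moved by less than the spread between replicates. The medians ran over -0.47 to 0.02, -0.51 to -0.01 and -0.49 to -0.29. That spread, the SD of a list's mean between arrays of a strain, was 0.30, 0.31 and 0.17. For all members and the chaperones it exceeds the size of the median itself (-0.26 and -0.27), so a shift to 0 would also count as less. The median difference of the degradation genes, -0.09 as reported, was 0.31 within slide 3 and 0.04 with slide as a fixed block. With 1 array left out it lay between -0.34 without B6-ob/ob replicate 6 and 0.16 without B6-ob/ob replicate 4, and was 0.09 without NZO replicate 12. That of the ATF4 branch was 0.12 within slide 3 and between -0.46 and 0.00886 with 1 array left out, the highest without B6-ob/ob replicate 4. The number of members lower in NZO, 1 as reported, was 6 with quantile normalisation and also 6 with normexp and quantile normalisation, 11 with array weights, 3 among single probes, and 0 with no filter on dim probes, with the mean of kept probes and with slide as a fixed block. With 1 array left out it was 0 to 7, the 7 without B6-ob/ob replicate 6. The number higher in NZO, 0 as reported, was 1 with normexp and quantile normalisation, with array weights and with the older gene names added. Without direction, 5 members were called in the value table. The cause of these changes was not tested, and apart from single probes the share of all gene names at these settings is not given. Of differences that did not pass, 12 members had the opposite sign within slide 3 and 10 without B6-ob/ob replicate 4. Pairing by replicate number was not possible because the strains share none (NZO 10 to 12, B6-ob/ob 4 to 6), and the only block fitted was slide. With 3 arrays a strain the median standard error of a member was 0.22 on the log2 scale, beside 0.17 over all gene names. Differences of that size could not be told from the spread between arrays. Larger ones also did not pass, such as 0.79 for Edem2 and -0.82 for Sdf2l1. The probe in use of each of the 35 members was well above background on all 6 arrays.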
